A study of Mus musculus with 6 samples.

Results

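The 10 genes of the DNA methylation machinery were followed here in mouse extraembryonic endoderm (XEN) and embryonic stem (ES) cells. They were the DNA methyltransferase genes Dnmt1, Dnmt3a, Dnmt3b and Dnmt3l, the 5-methylcytosine oxidase genes Tet1, Tet2 and Tet3, and Uhrf1, Zfp57 and Trim28, which serve the upkeep of methylation or the protection of imprints. They were chosen by name, and 10 of the 17710 genes listed in any library were therefore members. All 10 were listed in all 6 libraries, and all 10 passed the filter on low counts. XEN cells are lines of the primitive endoderm lineage, which forms yolk sac endoderm. They were of strain ICR and were grown in RPMI1640 with 15% FBS, Glut and BME. ES cells, pluripotent lines, came from strain 129/Ola and were grown on 0.1% gelatin in N2B27-2iLIF, a serum-free medium with 2 kinase inhibitors and LIF. Each group had 3 libraries of total RNA, named A, B and C, and no genetic change or agent beyond the medium was given for either group. Nothing in the labels marks libraries A, B and C as separate cultures, and each p-value therefore covers only the spread from library to library, perhaps a technical one. The effects of cell type, strain and medium cannot be told apart, because all of them differ between the groups.

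The XEN libraries held 21134720 to 22375875 expected counts and the ES libraries 20675311 to 22037793. The labelled cell types carried their markers. The 6 XEN markers (Gata4, Gata6, Sox17, Sox7, Pdgfra and Dab2) summed to between 4960 and 5270 CPM (counts scaled to library size) in XEN and between 4.66 and 5.39 CPM in ES libraries, and the 6 ES markers (Pou5f1, Nanog, Sox2, Esrrb, Zfp42 and Dppa5a) to between 1.44 and 1.89 CPM in XEN and between 4780 and 4920 CPM in ES libraries. The summed level of the 6 trophoblast markers was 7.85 to 9.42 CPM in XEN and 82.2 to 85.7 CPM in ES libraries, with Hand1 listed in no library. These markers did not move together. Tfap2c had 1, 3 and 0 counts in XEN and 1304, 1377 and 1289 in ES libraries, and Eomes and Krt7 were also lower in XEN cells. Cdx2 was higher there, with 17, 22 and 14 counts in XEN and 3, 4 and 3 in ES libraries. Elf5 had at most 2 counts in any library. The 5 feeder fibroblast markers summed to 0.447 to 0.606 CPM in XEN and 2.86 to 3.43 CPM in ES libraries, and the collagen genes Col1a1, Col1a2 and Col3a1 and the matrix gene Postn had at most 5 counts in any library. The 5 epiblast and germ layer markers summed to 0 to 0.0932 CPM in XEN and 9.81 to 12.4 CPM in ES libraries. The 4 Y-linked genes summed to 0.0497 to 0.094 CPM in XEN and 250 to 252 CPM in ES libraries. Expression from the Y chromosome thus moved with the groups too. Any effect of it cannot be told apart from those of cell type, strain and medium. The part of these other markers in the results was not tested. In bulk RNA, fewer cells that express a gene and less of its RNA per cell cannot be told apart.

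DNA methylation in mammals sits mostly on CG dinucleotides. After replication, UHRF1 binds the hemimethylated CG and brings in DNMT1, which methylates the new strand. DNMT3A and DNMT3B set new methylation, and DNMT3L, which has no catalytic activity of its own, stimulates them. TET1, TET2 and TET3 oxidise 5-methylcytosine, which opens the way to its loss. ZFP57 is a KRAB zinc finger protein that binds methylated imprinting control regions, and TRIM28 (also called KAP1) is the corepressor it brings there. In early embryos, extraembryonic lineages carry less genomic methylation than the later epiblast, and ES cells kept in 2i medium are also known for low methylation.

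In XEN cells, 3 of the 10 genes were expressed above their ES level (Dnmt3a, Dnmt3b and Tet3) and 7 below it (Dnmt1, Uhrf1, Dnmt3l, Tet1, Tet2, Zfp57 and Trim28). All 10 passed an adjusted p of 0.05 in the edgeR quasi-likelihood test, and in all 10 the XEN and ES libraries did not overlap in CPM. That count says little by itself, since 88.7% of the 13581 tested genes passed the same test, 42% as higher and 46.7% as lower in XEN cells, and 89.4% did not overlap between the groups. A change of at least 2-fold was called for 8 of the 10, against 47% of all tested genes, and a change of at least 8-fold for 4 of the 10 (Dnmt3l, Tet2, Tet3 and Zfp57), against 21.4%. The median log2 fold change of all tested genes was -0.07. Levels are given below as FPKM (fragments per kilobase of length, scaled to the reads of the library), which are per length and can be compared between genes, and log2 fold changes are XEN over ES on the scale of normalised counts.

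Trim28 had the highest level of the 10 in both cell types and Uhrf1 the next highest mean. In XEN libraries Dnmt3b, Dnmt1, Zfp57 and Tet3 followed in that order, each apart from its neighbours. Dnmt3a and Tet1 came next and overlapped with each other, as did Tet2 and Dnmt3l, the lowest pair. In ES libraries Uhrf1 and Zfp57 overlapped with each other, and Dnmt1, Tet1, Dnmt3b and Tet2 followed, each apart from the next. Dnmt3l and Dnmt3a overlapped below them, and Tet3 was the lowest. Tet3 thus led the Tet genes in XEN cells and came last of all 10 genes in ES cells.

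**Figure D1:**
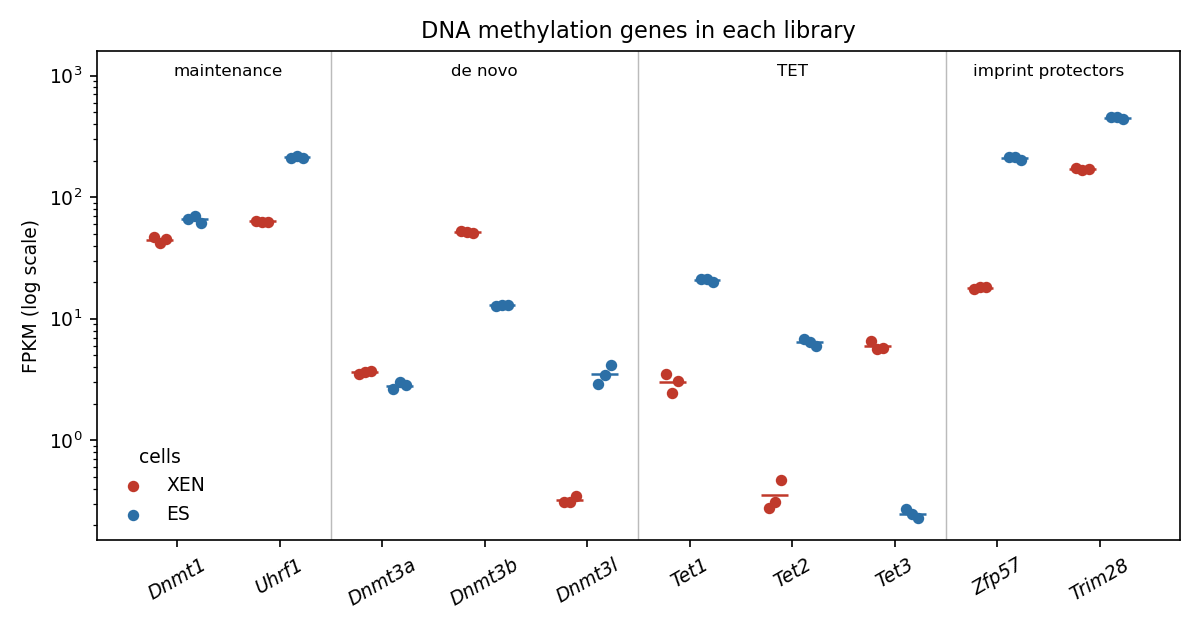
FPKM (log axis) of each of the 10 genes in each library, with XEN libraries to the left of ES libraries and a bar at the group mean. Tet3 sits at 5.63 to 6.53 FPKM in XEN and 0.23 to 0.27 FPKM in ES libraries, whereas Tet2 sits at 0.28 to 0.47 FPKM in XEN and 5.98 to 6.77 FPKM in ES libraries.

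The maintenance genes were both lower in XEN cells, Uhrf1 by more than Dnmt1. Dnmt1 had 47.3, 42.0 and 45.0 FPKM in XEN libraries A, B and C, against 66.7, 69.8 and 61.4 FPKM in ES libraries A, B and C. The lowest ES library lay above the highest XEN library, and the fold change was small, with a log2 fold change of -0.43 ± 0.07 (SE; edgeR adjusted p = 8.66e-07), or 1.34-fold. Among all tested genes, 72.4% changed at least as much as Dnmt1. Uhrf1 had 64.1, 62.9 and 62.7 FPKM in XEN libraries and 210.3, 216 and 209.7 FPKM in ES libraries. Its log2 fold change was -1.65 ± 0.02 (SE; edgeR adjusted p = 4.99e-20), a 3.14-fold lower level. The ratio of Uhrf1 to Dnmt1 FPKM was therefore 1.42 ± 0.0734 in XEN and 3.22 ± 0.169 in ES libraries (SD, n = 3 each; exact permutation p = 0.1, two-sided, which is the lowest value possible with 3 libraries per group).

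Of 7 partners of maintenance methylation, 1 was called higher and 5 lower in XEN cells, with a median log2 fold change of -0.28. The one called higher was Uhrf2, a paralog of Uhrf1 that does not replace it in maintenance, at 34.1 ± 1.07 FPKM in XEN and 14.1 ± 0.252 FPKM in ES libraries (log2 fold change 1.41). Uhrf1 had a higher level than Uhrf2 in both cell types. Cdca7, which activates the remodeller HELLS, fell to 26.0 ± 0.789 FPKM in XEN cells, against 82.8 ± 1.63 FPKM in ES cells (log2 fold change -1.54). Usp7, a deubiquitinase that binds DNMT1 and UHRF1, also fell (-0.75). Pcna, the replication clamp and the most abundant of the list, had 192 ± 3.90 FPKM in XEN and 344.5 ± 8.02 FPKM in ES libraries (SD, n = 3 each), a log2 fold change of -0.71 ± 0.03 (SE; edgeR adjusted p = 1.34e-13). Pcna is also a marker of replicating cells, and its part in the lower Uhrf1 level was not tested.

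The de novo genes did not move together. Dnmt3b was the main one in both cell types and was higher in XEN cells, Dnmt3a was low in both with a small rise, and Dnmt3l was low in both and lower in XEN cells. Dnmt3b had 52.7, 52.0 and 50.9 FPKM in XEN libraries and 12.7, 13.1 and 12.9 FPKM in ES libraries. The groups lay far apart, with a log2 fold change of 2.13 ± 0.02 (SE; edgeR adjusted p = 2.44e-21), or 4.37-fold. Dnmt3a had 3.48, 3.65 and 3.71 FPKM in XEN libraries, against 2.64, 3.0 and 2.83 FPKM in ES libraries. The ranges were close but separate, and the log2 fold change was 0.45 ± 0.08 (SE; edgeR adjusted p = 1.42e-06), or 1.37-fold. Dnmt3l had 0.31, 0.31 and 0.35 FPKM in XEN libraries, from 11 expected counts in each, and 2.91, 3.43 and 4.15 FPKM in ES libraries, from 95, 118 and 144 expected counts. Its level was low in both cell types, and 9.94-fold lower in XEN cells (log2 fold change -3.31 ± 0.15, SE; edgeR adjusted p = 7.64e-12).

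As a share of the summed FPKM of the 3 Dnmt3 genes, Dnmt3b made up 92.9% ± 0.344 in XEN and 67.2% ± 2.36 in ES libraries (SD, n = 3 each). The share of Dnmt3a was 6.48% ± 0.302 in XEN and 14.7% ± 0.634 in ES libraries, although its own level was higher in XEN cells. Dnmt3l took 0.58% ± 0.0497 in XEN and 18.1% ± 2.50 in ES libraries. The summed level was 56.5, 55.9 and 54.9 FPKM in XEN libraries and 18.3, 19.5 and 19.9 FPKM in ES libraries, 2.9-fold higher in XEN cells. For each Dnmt3b transcript per length there were 0.00624 ± 0.000555 of Dnmt3l in XEN and 0.271 ± 0.0466 in ES libraries (SD, n = 3 each). Dnmt3l had 11 expected counts in each XEN library, so the SDs of its XEN share and ratio understate the counting error. No share, sum or ratio overlapped between the groups, and each had a two-sided exact permutation p of 0.1, the smallest possible.

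The promoters of the de novo gene that rose most and of the one that fell most are shown because methylation acts on CG, and each sequence is the 250 bases before and 50 bases after a RefSeq transcript start (GRCm38.p6), 5′ to 3′ on the gene's strand with every CG in capitals. The files were made on another build, mm9, so these coordinates are RefSeq's. The Dnmt3b window is chr2:153649199-153649498 on the plus strand, and the Dnmt3l window, the first of its 3 listed starts, is chr10:78042037-78042336 on the plus strand. Which of the 3 Dnmt3l starts either cell type uses was not tested, nor whether the Dnmt3b start is used. The printed windows may therefore not belong to the RNA counted here.
Dnmt3b: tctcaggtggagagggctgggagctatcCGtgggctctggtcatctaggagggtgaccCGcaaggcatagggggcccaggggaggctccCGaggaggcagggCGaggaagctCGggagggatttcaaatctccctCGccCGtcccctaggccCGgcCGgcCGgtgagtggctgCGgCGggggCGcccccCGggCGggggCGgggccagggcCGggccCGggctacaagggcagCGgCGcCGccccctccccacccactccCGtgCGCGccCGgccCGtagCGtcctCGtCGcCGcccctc
Dnmt3l: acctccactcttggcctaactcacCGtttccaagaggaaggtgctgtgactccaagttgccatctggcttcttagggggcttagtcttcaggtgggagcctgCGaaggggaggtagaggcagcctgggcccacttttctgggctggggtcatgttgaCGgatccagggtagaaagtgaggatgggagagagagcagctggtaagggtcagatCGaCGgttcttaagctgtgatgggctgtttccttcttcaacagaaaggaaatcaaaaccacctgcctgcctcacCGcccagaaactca
The Dnmt3b window holds 30 CG, a count reached by 11.7% of the 32851 RefSeq windows of this length, whose median is 7 and of which 94.6% hold at least 1. The Dnmt3l window holds 6, reached by 56.4%, and its other starts hold 4 and 3. CG is its own reverse complement, so both strands give the same count. These are letters of the reference and carry no measurement of methylation.

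The Tet genes showed the widest spread of the machinery, with the 2 largest changes among the 10 genes in opposite directions. Tet1, which ES cells are known to express at a high level, had 3.48, 2.44 and 3.08 FPKM in XEN libraries, against 21.4, 21.4 and 20.2 FPKM in ES libraries. XEN library B was the lowest of the 6, and the groups were separate, with a log2 fold change of -2.68 ± 0.16 (SE; edgeR adjusted p = 1.95e-05), or 6.41-fold. Tet2, the other Tet gene typical of ES cells, had 0.28, 0.31 and 0.47 FPKM in XEN libraries, from 57, 64 and 91 expected counts. In ES libraries it had 6.77, 6.39 and 5.98 FPKM, from 1275, 1275 and 1200 expected counts, which gives a log2 fold change of -4.04 ± 0.23 (SE; edgeR adjusted p = 6.71e-13), 16.4-fold lower in XEN cells. Tet3, known for its role in the zygote and in differentiating cells, had 6.53, 5.63 and 5.71 FPKM in XEN libraries and 0.27, 0.25 and 0.23 FPKM in ES libraries. Its expected counts were 1601, 1390 and 1327 in XEN libraries and 60, 60 and 57 in ES libraries. No library came near those of the other group, and the log2 fold change was 4.71 ± 0.08 (SE; edgeR adjusted p = 1.64e-21), 26.2-fold higher in XEN cells.

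The makeup of the Tet pool thus differed in every library. Tet3 made up 63.5%, 67.2% and 61.7% of the summed Tet FPKM in XEN libraries A, B and C, and 0.95%, 0.892% and 0.87% in ES libraries. Tet1 made up 32.1% ± 2.57 in XEN and 76.0% ± 0.689 in ES libraries (SD, n = 3 each), and was thus the second Tet gene of XEN cells and the first of ES cells. Tet2 made up 3.83% ± 1.18 in XEN and 23.1% ± 0.648 in ES libraries. The rise of Tet3 did not make up for the fall of the others in summed level, which was 10.3, 8.38 and 9.26 FPKM in XEN libraries and 28.4, 28.0 and 26.4 FPKM in ES libraries, 2.97-fold lower in XEN cells. The 3 shares and the sum each had a two-sided exact permutation p of 0.1, the smallest possible, with no overlap between groups.

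**Figure D2:**
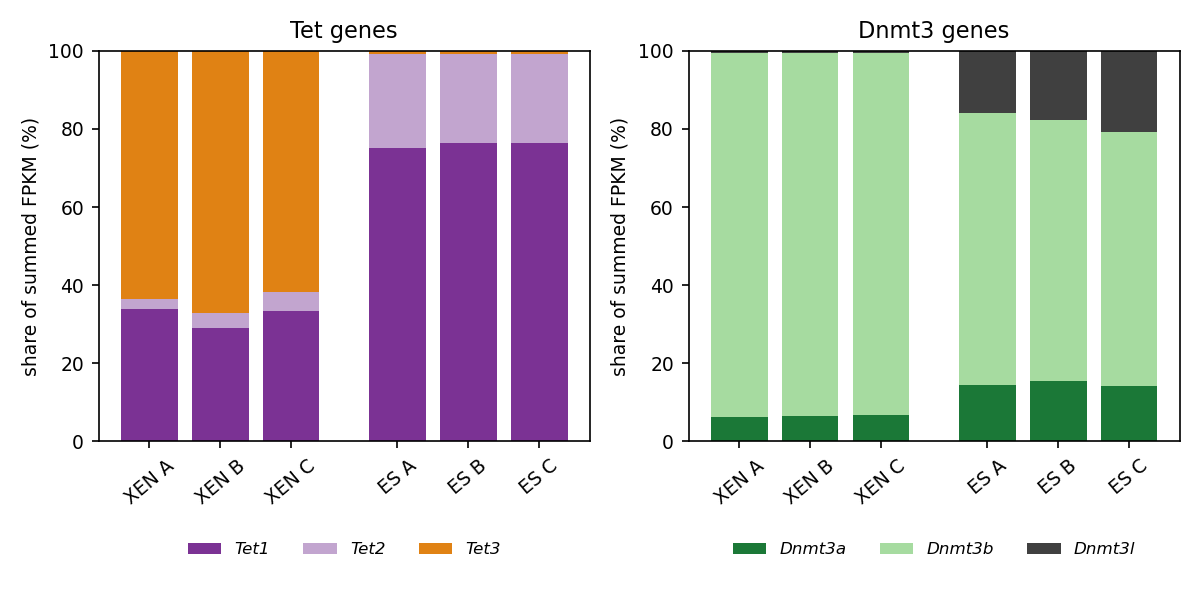
Share (percent) of each Tet gene in the summed Tet FPKM and of each Dnmt3 gene in the summed Dnmt3 FPKM, 1 bar per library, XEN libraries left of ES libraries. Tet3 fills 61.7% to 67.2% of the Tet bar in XEN libraries and under 1% in ES libraries, and Dnmt3l is a thin line on top of the Dnmt3 bars in XEN and a wide block in ES libraries.

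The promoter windows of the 3 Tet genes are shown because the genes share a reaction and moved in opposite directions. Each gene has 1 listed start, and all 3 lie on the minus strand: Tet1 at chr10:62887275-62887574, Tet2 at chr3:133544341-133544640 and Tet3 at chr6:83441629-83441928 (GRCm38.p6, RefSeq). Letters are printed as above, with CG in capitals. Whether either cell type uses these starts was not tested, so these windows too may not belong to the RNA counted here.
Tet1: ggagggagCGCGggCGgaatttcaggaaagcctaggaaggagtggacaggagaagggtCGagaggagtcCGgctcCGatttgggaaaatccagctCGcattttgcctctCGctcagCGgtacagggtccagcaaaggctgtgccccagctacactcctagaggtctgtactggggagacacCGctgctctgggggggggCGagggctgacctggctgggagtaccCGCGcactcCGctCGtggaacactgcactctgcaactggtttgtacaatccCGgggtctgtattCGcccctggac
Tet2: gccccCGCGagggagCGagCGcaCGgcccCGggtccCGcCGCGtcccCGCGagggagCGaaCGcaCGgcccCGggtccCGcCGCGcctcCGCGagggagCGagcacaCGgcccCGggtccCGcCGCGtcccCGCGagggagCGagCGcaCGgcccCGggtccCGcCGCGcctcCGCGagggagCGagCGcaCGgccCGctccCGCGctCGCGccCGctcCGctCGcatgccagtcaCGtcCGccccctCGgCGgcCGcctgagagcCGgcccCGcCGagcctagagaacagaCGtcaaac
Tet3: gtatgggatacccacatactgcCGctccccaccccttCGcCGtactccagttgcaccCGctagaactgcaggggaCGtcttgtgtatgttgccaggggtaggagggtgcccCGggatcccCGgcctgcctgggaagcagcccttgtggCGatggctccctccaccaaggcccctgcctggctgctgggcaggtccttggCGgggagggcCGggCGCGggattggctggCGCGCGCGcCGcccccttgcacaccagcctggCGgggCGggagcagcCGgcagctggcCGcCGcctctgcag
The Tet2 window is the densest of the 10 genes, with 57 CG, a count reached by 0.152% of all windows. The Tet3 window holds 22 (reached by 23.1%) and the Tet1 window 17 (31.4%). The 2 genes that fell therefore hold the highest and the lowest CG count of the 3 windows. Any part of the CG count in the direction of change was not tested.

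The pair that protects imprints fell, Zfp57 by more than its corepressor. Zfp57 had 17.5, 18.4 and 18.2 FPKM in XEN libraries, against 212.9, 213 and 201.5 FPKM in ES libraries. It was 9.9-fold lower in XEN cells (log2 fold change -3.31 ± 0.04, SE; edgeR adjusted p = 9.4e-24) and still had a level above that of every Tet gene there. Trim28 had 172, 168 and 170.2 FPKM in XEN libraries and 456.5, 458 and 437 FPKM in ES libraries. Its log2 fold change was -1.28 ± 0.02 (SE; edgeR adjusted p = 5.89e-18), 2.42-fold lower, and it stayed the most abundant of the 10 genes in XEN cells. The ratio of Zfp57 to Trim28 FPKM was 0.106 ± 0.00392 in XEN and 0.464 ± 0.00274 in ES libraries (SD, n = 3 each; two-sided exact permutation p = 0.1, the smallest possible).

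**Figure D3:**
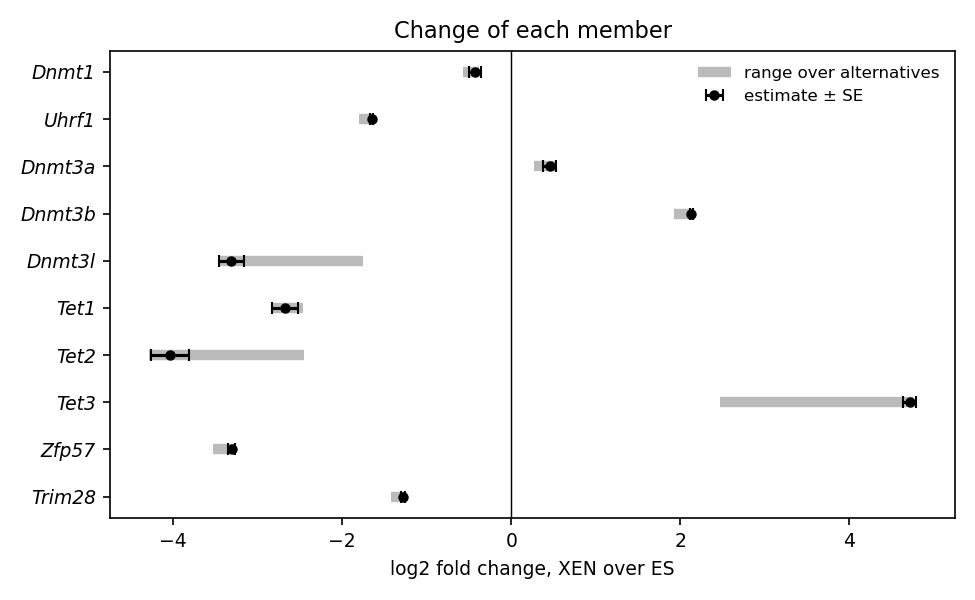
Log2 fold change (XEN over ES) of each of the 10 genes as points with standard errors, with grey bars for the range over the alternative settings. Tet3 has the largest rise (4.71) and Tet2 the largest fall (-4.04), and no grey bar crosses 0.

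The tables also list a length for each gene, an average over its transcripts weighted by their abundance, so a length that differs between libraries reflects another estimated mix of transcripts. Trim28 had 1 length, 3255 bases, in all libraries. The other 9 genes varied, and 5 of them did not overlap between the groups. How often the lengths of other genes lie apart in this way was not tested. The count of 5 therefore cannot be read as a trait of these genes. Zfp57 was listed at 2416 ± 80.6 bases in XEN and 2258 ± 42.3 bases in ES libraries (SD, n = 3 each). Uhrf1 was listed at 3476.5 ± 2.37 bases in XEN and 3564.5 ± 2.65 bases in ES libraries, a difference of -88.0 bases against a spread of under 3 bases. Dnmt3a (-208 bases), Dnmt3b (-27.3 bases) and Tet1 (-46.1 bases) were also shorter in XEN libraries. A single library weighed on 2 of these values, since the Dnmt3a difference was -99.5 bases without ES library B and the Tet1 difference -19.6 bases without XEN library C. Each of these 5 had a two-sided exact permutation p of 0.1, the smallest possible. Dnmt1, Dnmt3l, Tet2 and Tet3 overlapped, with exact permutation p-values of 0.5 to 1. The tables give no level per transcript, so which transcripts differed was not analysed here.

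**Figure D4:**
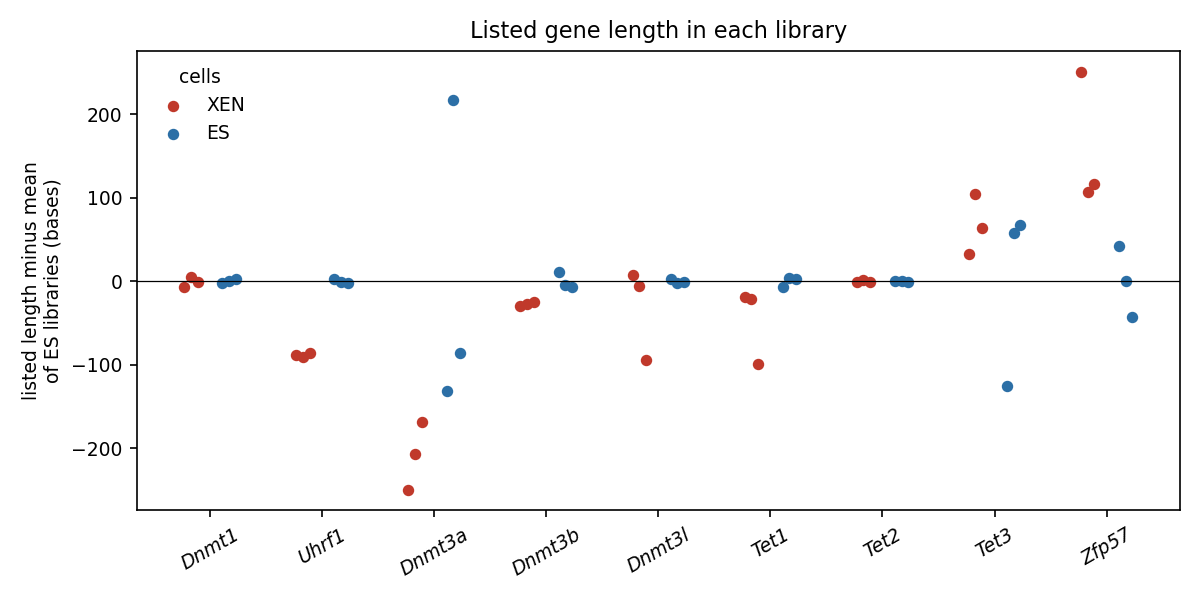
Listed length of each gene in each library, as the difference in bases from the mean of the ES libraries, XEN left of ES. The 3 XEN libraries of Uhrf1 lie together below the 3 ES libraries, whereas those of Tet2 overlap.

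For the members with the largest rise and the largest fall, the tested genes with the nearest pattern were named by the Euclidean distance of log2 CPM over the 6 libraries. Nearest to Tet3 were Phldb1 (distance 0.31; 69.7 ± 5.79 CPM in XEN and 2.53 ± 0.0825 CPM in ES libraries), Bag2 (0.43) and Arhgef28 (0.44). Nearest to Tet2 were Ncam1, a neural cell adhesion gene, with a distance of 0.52 and 3.07 ± 0.575 CPM in XEN and 63.8 ± 3.07 CPM in ES libraries, then Snurf (0.67), whose count is uncertain because it shares a transcript with Snrpn, and Sap30 (0.72), a subunit of the SIN3 corepressor. With 2 groups of 3 libraries, such likeness is mostly the level in each group.

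Genes that work beside the 10 were counted in 8 lists. Of 10 histone methylation genes linked to the DNMT3 enzymes, 5 were called higher and 4 lower in XEN cells (median log2 fold change 0.18). Nsd2 and Nsd1, writers of dimethylated lysine 36 on histone H3, went opposite ways. Nsd2 had 32.4 ± 1.95 FPKM in XEN and 6.82 ± 0.125 FPKM in ES libraries (log2 fold change 2.37), and Nsd1 had 7.36 ± 0.52 FPKM in XEN and 21.7 ± 0.613 FPKM in ES libraries (-1.43). Setd2, the writer of the trimethylated mark, fell (-0.81), and Suv39h1, a writer of trimethylated lysine 9, rose (1.88). Kdm1a, a demethylase with the highest mean FPKM of the list over the 6 libraries, fell (-0.76). In XEN libraries it had 36.65 ± 1.11 FPKM, below Ehmt2 at 58.29 ± 2.07 FPKM.

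Of 15 base excision and demethylation partners, 5 were called higher and 9 lower (median -0.30). Ung, which removes uracil, had 15.1 ± 1.04 FPKM in XEN and 80.1 ± 3.08 FPKM in ES libraries (log2 fold change -2.28), and Neil2, a glycosylase for oxidised bases, had 0.37 ± 0.0624 FPKM in XEN and 5.63 ± 0.151 FPKM in ES libraries (-3.79). Apex1, the abasic site endonuclease and the most abundant of the list, fell (-0.91). Tdg, the glycosylase that removes the products of TET oxidation, went the other way, with 46.4 ± 2.49 FPKM in XEN and 31.5 ± 0.974 FPKM in ES libraries (0.69). It falls outside the rule for named genes and was chosen for its role. Gadd45b (1.72) and Gadd45a (0.95), stress response genes that have been linked to demethylation, rose. Their paralog Gadd45g rose more (3.44), with 201, 194 and 145 counts in XEN and 12, 17 and 24 in ES libraries. Its mean lay below 5 CPM, outside the rule for named genes.

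Of 14 genes of silencing by KRAB zinc finger proteins, 2 were called higher and 9 lower (median -0.27). Fam208a, a core subunit of the HUSH complex, fell to 5.04 ± 0.301 FPKM in XEN libraries, against 18.4 ± 0.459 FPKM in ES libraries (log2 fold change -1.88), and Atf7ip, the partner of the methyltransferase SETDB1, also fell (-1.29). Pphln1, another HUSH subunit, rose to 20.6 ± 0.825 FPKM in XEN libraries, against 7.96 ± 0.578 FPKM in ES libraries (1.52). The call of Mphosph8, the third, rested on the scaling, with a log2 fold change of 0.18 that came to 0.04 with upper-quartile scaling (edgeR adjusted p = 0.403). Sumo2, the most abundant of the list, had a log2 fold change of -0.08 and was not called (edgeR adjusted p = 0.0763), but it was called lower with upper-quartile scaling (-0.23, edgeR adjusted p = 3.2e-05) and under 7 of the other 15 alternatives.

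Of 8 other regulators of imprints and methylation, 7 were tested and all 7 were called lower in XEN cells (median -1.13), against 46.7% of all tested genes. Zfp42 and Prdm14 passed the filter only through the ES libraries and had to be lower, so this count supports nothing about the list. Zfp42 (REX1), which is also one of the ES markers above, had 0.14 ± 0.0458 FPKM in XEN and 328 ± 2.76 FPKM in ES libraries. Prdm14, known to repress the Dnmt3 genes in ES cells, had 0, 2 and 0 expected counts in XEN libraries (0 where a table does not list the gene) and 1377, 1471 and 1345 in ES libraries. Zfp445, a KRAB zinc finger gene that acts at imprints beside Zfp57, and Ctcf, which binds the unmethylated allele of some control regions, fell by less (log2 fold changes -0.50 and -0.19; both outside the rule and chosen for their role). Dppa3 (Stella), which keeps UHRF1 from chromatin in oocytes, did not pass the filter, absent from the tables of all 3 XEN libraries and with 7, 11 and 16 expected counts in ES libraries.

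Of 7 methyl-CpG readers, 4 were called higher and 2 lower (median 0.22), and 2 of the 4 lost their call with other scalings. Mbd2 had 25.4 ± 0.45 FPKM in XEN and 12.9 ± 0.425 FPKM in ES libraries (log2 fold change 1.25). Mbd3, the most abundant, had 59.6 ± 3.93 FPKM in XEN and 59.7 ± 1.22 FPKM in ES libraries, so its log2 fold change of 0.13 on normalised counts was not seen in FPKM. Zbtb38 fell (-3.03). Mbd1 was absent from the tables of all 3 XEN libraries and had 667, 704 and 651 expected counts in ES libraries. Of 8 CXXC proteins, 7 were tested, 3 were called higher and 2 lower (median 0.04). Kdm2a and Kdm2b, demethylases that bind unmethylated CG, rose (0.69 and 0.68), and Cxxc5 (-2.07) and Kmt2b (-0.43) fell. The call of Fbxl19 (0.12) was lost with upper-quartile scaling (edgeR adjusted p = 0.534) and under 9 of the other 15 alternatives. Of 5 enzymes of the methyl donor cycle, 3 were called higher and 1 lower (median 0.29). Ahcy, which clears the methylation by-product S-adenosylhomocysteine, had 59.7 ± 2.71 FPKM in XEN and 6.71 ± 0.0896 FPKM in ES libraries (log2 fold change 3.28). Mat2b, the regulatory subunit of methionine adenosyltransferase, fell (-1.58), and Mat2a, its catalytic subunit and the most abundant of the list, rose by little (0.30).

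Counts of imprinted and germline genes describe total RNA and say nothing of the allele or of methylation. Of 54 imprinted genes, 40 were tested, 17 of them were called higher and 20 lower in XEN cells (median -0.15), a split near that of all tested genes. Sgce, the gene next to Peg10 in the same imprinted cluster, had 61.4 ± 3.49 FPKM in XEN and 0.603 ± 0.159 FPKM in ES libraries (log2 fold change 6.76), and Peg10, which placenta needs, had 98.8 ± 13.1 FPKM in XEN and 1.15 ± 0.0252 FPKM in ES libraries (6.56). Gnas, which had the highest mean FPKM over the 6 libraries, also rose (3.51). In ES libraries it was not the most abundant, with 74.05 ± 2.10 FPKM against 296.1 ± 8.40 FPKM for Cd81. Dio3 had 1, 0 and 0 expected counts in XEN and 243, 303 and 293 in ES libraries. Slc38a4 was absent from the XEN tables and had 336, 369 and 365 expected counts in ES libraries. Of 23 germline genes known to be silenced by promoter methylation, 17 were tested, 1 was called higher and 16 lower. A gene that passed the filter only through the ES libraries had to be lower in XEN cells, so this count supports nothing about the list. Rpl10l had 0, 1 and 0 expected counts in XEN libraries and 1079, 1193 and 1179 in ES libraries, and Hormad1 had 1, 0 and 0 in XEN and 245, 257 and 291 in ES libraries. The median log2 fold change of the 17 was -7.10, and -5.89 with the 5 genes at 0 counts in a group set to their bound against 3 counts over that group. For comparison, the median over all tested genes was -0.07, with 42% called higher and 46.7% called lower.

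**Figure D5:**
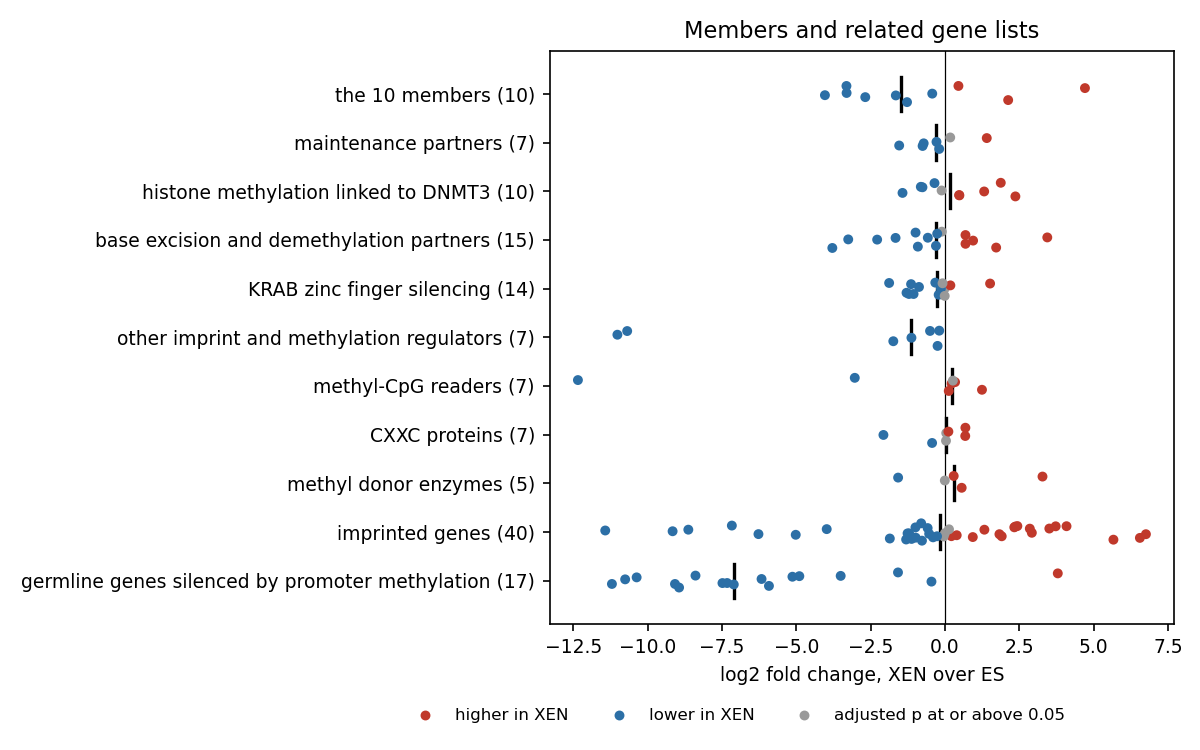
Log2 fold change (XEN over ES) of each tested gene of the related lists, 1 dot per gene (red called higher and blue lower in XEN cells, grey not called), with a bar at the list median and the 10 genes at the top. Values of genes with 0 counts in a group depend on a small constant added in the fit. The germline list has the lowest median (-7.10, or -5.89 with genes at 0 set to a bound). Genes that passed the filter only through the ES libraries had to be lower, so this median supports nothing about that list.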

How the data were processed

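The data were 6 tables, 1 per library, with expected counts, FPKM and gene lengths as deposited by the authors in RSEM format. Bowtie2, RSEM, DESeq2 and the mm9 build are named, without roles or versions, per the submitters' processing notes. The deposited FPKM values are scaled to gene length and to the fragments of the library, and the deposited tables list genes down to 0.01 FPKM only. Genes that a table does not list were set to 0. Of the expected counts, 13.8% were not whole, and they were rounded. Genes were filtered with filterByExpr (13581 kept), scaled by TMM and tested with edgeR 4.0.16 (R 4.3.3; robust quasi-likelihood test, group only, Benjamini-Hochberg over all tested genes at 0.05). Standard errors came from log2 CPM (prior count 2). Shares, ratios and lengths were compared by two-sided exact permutation tests over 20 arrangements. Depth was 20675311 to 22375875 expected counts, and counting error alone limits Dnmt3l in XEN libraries (11 counts each). The pipeline was tested on simulated data in which 13139 of 13339 genes were unchanged. That test cannot show how the scaling and the calls hold where most genes differ, as they do here.

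The members and lists were chosen with earlier results of these data known. Named list genes were up to 2 called genes with the largest change in each direction with a mean of 5 CPM or more, plus the one with the highest mean FPKM. Alternatives were RLE, upper-quartile or no composition factors, no filter or a minimum mean of 1 CPM, a replicate block, DESeq2 1.42.0, limma 3.58.1 on log2(FPKM + 1) and log2(FPKM + 0.1), leaving out each library, shares of expected counts, length implied by counts and FPKM, and, added after the data were seen, leaving out unnamed gene models. Promoters were matched by gene symbol to RefSeq (GRCm38.p6) for all 10 members. Protein sequences were not used here. Some genes that the rule names are not reported here.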

Additional observations from a re-analysis of the deposited data

How the results depend on the processing

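The calls of the 10 genes, 3 higher and 7 lower in XEN cells, were the same under all 16 alternatives of the gene test, and the 160 alternative log2 fold changes kept their direction and call. On log2(FPKM + 1), which understates the change of low genes, limma gave log2 fold changes of -1.76 for Dnmt3l, -2.45 for Tet2 and 2.47 for Tet3. Upper-quartile scaling moved the median log2 fold change of all tested genes by -0.15 and no composition factors by -0.13, and the called genes ranged from 5093 to 6171 higher and from 5766 to 7122 lower. The replicate letters did not pair the libraries: libraries of a letter had correlations of 0.033, 0.008 and 0.02 between their deviations from the group means. With the letter as a replicate block, 3 members were called higher and 7 lower, and of all genes 5682 higher and 6318 lower. The count of KRAB silencing genes called higher was 1 with upper-quartile scaling, no composition factors and limma on both FPKM scales, in place of 2. That of methyl-CpG readers was 2 with upper-quartile scaling, no composition factors and limma on log2(FPKM + 1), and 1 on log2(FPKM + 0.1), in place of 4. That of maintenance partners ranged from 1 to 2 when 1 library was left out, with 2 without XEN replicate A and without ES replicate C, where Cdca7l was called. As shares of expected counts, which favour long genes, the XEN minus ES differences in percentage points were -13.2 for Tet2 (-19.2 by FPKM), 58.2 for Tet3 (63.2), -17.5 for Dnmt3a (-8.20) and -6.33 for Dnmt3l (-17.5). By the length implied by counts and FPKM, the XEN minus ES difference was 56.6 bases for Tet2 (-0.117 by listed length) and -94.4 for Uhrf1 (-88.0). FPKM are deposited to 2 decimals, so for Tet2, at 0.28 to 0.47 FPKM in XEN libraries, the implied length is imprecise (9234 bases in XEN library B, above the listed 9205), and its 56.6 bases are no measured difference. With groups of 3, no exact permutation p could fall below 0.1.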

Other observations

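Mbd1 was absent from the tables of all 3 XEN libraries, while Cxxc1 had 1167, 1237 and 1211 expected counts in XEN and 1188, 1306 and 1303 in ES libraries (log2 fold change 0.04; edgeR adjusted p = 0.471). The direction for Cxxc1 rested on the scaling, with -0.11 and a lower call under upper-quartile scaling (edgeR adjusted p = 0.0345) and -0.10 with no composition factors, and it was also negative in both limma fits on FPKM. Mbd1 reads a methylated CG and Cxxc1 binds an unmethylated one, and both carry a CXXC domain.

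Brdt, a bromodomain gene of the testis, was the 1 tested germline gene called higher in XEN cells (77, 82 and 78 expected counts in XEN and 4, 10 and 4 in ES libraries), and it was chosen after its values were seen. Among imprinted genes, Peg3, Usp29 and Zim1, neighbours in 1 imprinted cluster, were all higher in XEN cells (4.09, 3.73 and 5.67), with Peg3 at 95.0 ± 10.3 FPKM in XEN and 6.26 ± 0.612 FPKM in ES libraries. Grb10 (-7.17) and Gab1 (-3.98) were lower. These 5 were also chosen after their values were seen.

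Snurf, the second nearest gene to Tet2, shares a bicistronic transcript with Snrpn. Snurf had 3.92 ± 0.516 CPM in XEN and 48.6 ± 1.96 CPM in ES libraries, whereas Snrpn was absent from the tables of all 3 XEN libraries and of ES library B and had 5 and 6 expected counts in ES libraries A and C. How the reads of the shared transcript were divided between the 2 names is not given in the sources used here, and both values are uncertain.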
